A study of Mus musculus with 86 samples.

Results

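The oligos that tile the 3′ UTR of the mouse gene Fam160b2 were examined in a massively parallel reporter assay (MPRA), in an in vitro binding assay (RNA Bind-n-Seq, RBNS) and in a metabolic labelling assay (SLAM). Members were all oligos whose name carries the symbol Fam160b2, which gave 528 of the 11955 oligos of the library. Of these, 282 carried the wild-type sequence, numbered 1 to 282 along the transcript, and 246 were mutated companions in which every recognised TDP-43 motif was replaced. The other 36 wild-type oligos (58 to 68, 112 to 128 and 172 to 179) held no recognised motif and had no companion. The study asked how the RNA-binding protein TDP-43 shapes the distribution of RNA between the soma and the neurites of neuronal cells.

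Reporters were expressed in CAD cells, a mouse line of catecholaminergic origin from the central nervous system, of the genotype labelled TetOff TDP-43. In these clonal cells the endogenous TDP-43 alleles were inactivated and a single-copy HA-tagged TDP-43 transgene that doxycycline switches off supplied the protein, so every group shared the inactivated alleles. Minus-doxycycline cells are called wild-type here and plus-doxycycline cells, exposed for 48 h, knockout. Cells were differentiated by removing serum and cut into soma and neurite fractions on porous membranes, with 4 libraries each of wild-type soma, wild-type neurite, knockout soma and knockout neurite. The binding assay used purified TDP-43 at 0, 5, 50 and 500 nM with 1, 2, 2 and 2 libraries and 1 input library. The labelling assay fed the cells 4-thiouridine (4SU) for 24 h and sampled them at 0 h and 12 h of a uridine chase (2 libraries of wild-type cells at 0 h, 3 in every other group), with 3 libraries without 4SU. The endogenous gene was read in RNA-seq of soma and neurite fractions, 3 libraries per group, from the same CAD design, from N2A neuroblastoma cells of the TetOff TDP-43 genotype, and from CAD cells with intact endogenous alleles and a single-copy, doxycycline-inducible transgene of either WT TDP-43 or Q331K TDP-43, an ALS-associated missense form. The labels call these last cells overexpressing, whereas the study's methods describe a lowered endogenous TDP-43 and a similar total level, with the transgene as the larger part.

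TDP-43, encoded by Tardbp, is a mainly nuclear protein that binds UG-rich RNA through its RNA recognition motifs and acts in splicing, polyadenylation, stability and transport of its targets. In motor neuron disease it leaves the nucleus and aggregates in the cytoplasm. Fam160b2, also named Fhip2b, encodes a member of the FHIP family, whose relatives join FTS and Hook proteins in a complex that links cargo to the motor dynein.

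Each oligo held 260 nt and neighbours stepped by 6 nt, so that adjacent oligos shared 254 nt and are not independent measurements. The tiling ran over 1946 nt of chr14:70583198-70585143 (GRCm38, minus strand). Laid on transcript ENSMUST00000022690 of gene ENSMUSG00000022095 (chr14:70583296-70599835, 17 exons), the first oligo began 96 nt before the stop codon at chr14:70585045-70585047. The rest of the tiling covered the 3′ UTR of 1749 nt (chr14:70583296-70585044), which lies within the last exon, and the last oligos ran 98 nt past the annotated transcript end. The placement rests on the motif positions written in the oligo names: in 265 of 265 oligos that lie within the transcript, each named motif was found at its stated position, whereas the next best offset matched 62 of 205.

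The recognised motifs fell into 2 classes by position. Oligos 1 to 179 and 277 to 282 held isolated motifs or none, for which these sites stand, with the mutated bases in capitals:
isolated motif 1 (chr14:70584995-70585019): gattcctgccTGTGTacttctgccc
isolated motif 3 (chr14:70584469-70584493): gaggcccaaaGTATGctctgcgccc
Oligos 180 to 276, 97 in number, held part of a GU-rich tract at chr14:70583485-70583815, called the GU tract below. The other 185 wild-type oligos held no motif base of this tract. Its 5′ edge is shown with the mutated bases in capitals, followed by a 30-nt unit that occurs 3 times in its downstream portion and by the longest GA run, at its 3′ edge:
tract start (chr14:70583792-70583821): cactccTGTGTGTGTGTGTGaGTGTGTGTG
repeated unit (chr14:70583612-70583641, chr14:70583561-70583590 and chr14:70583498-70583527): agcgagctatgaatgaatgtgaGTGTGTGT
longest GA run (chr14:70583461-70583485): Gagagagagagagagagagagagag
In the companions each TGTGT became ACACA. Likewise every GTGTG was turned into the letters CACAC, and every GTATG was turned into the letters CATAC. Within the tract, alternating GT ran for up to 34 nt and 4 GA runs of 11 to 25 nt lay in or beside its downstream portion. Oligo 223 held the most tract bases that count as motif, 179.

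Reporter libraries held 7923270 to 12208997 unique molecular identifiers (UMIs). The 528 oligos took 3.57 to 3.70% of UMIs in wild-type neurites and 3.63 to 4.05% in wild-type somas. They took 5.66 to 5.96% in knockout somas and 10.8 to 11% in knockout neurites, so that their share was higher in all 8 knockout libraries than in any wild-type library. Values below are UMIs per 1000000 of the scaled library (CPM), and a log2 ratio of neurite over soma is called LR. All p-values measure the spread between samples labelled as replicates, which the labels do not tie to separate cultures.

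Most of the 97 reporters that held part of the GU tract were more abundant in neurites of knockout than of wild-type cells. Their log2 changes in neurites ran from -0.02 to 6.30 with a median of 3.22. Oligo 246 (chr14:70583414-70583673), whose LR change was the largest of the members, stood at 33.1, 41.9, 33.2 and 34.8 CPM in wild-type neurites and at 2768, 2543, 2939 and 3003 CPM in knockout neurites. In the somas the same oligo stood at 42.2, 43.5, 37.8 and 33.7 CPM in wild-type cells and at 165, 173, 203 and 173 CPM in knockout cells. Neither compartment showed any overlap between wild-type and knockout libraries. The LR of oligo 246 was -0.14 in wild-type cells and 3.98 in knockout cells, an LR change of 4.12 (SE 0.133, edgeR FDR 5.05e-17, n = 4). In bulk fractions, more molecules per cell and more cells contributing RNA cannot be told apart. Its mutated companion stood at 10.6, 12.2, 10.6 and 10.9 CPM in wild-type neurites and 14.1, 18.7, 14.3 and 14.1 CPM in knockout neurites. The companion's LR change was 0.24 (edgeR FDR 0.88), and the pair's LR changes differed by -3.87 (SE 0.278, limma FDR 1.19e-08). Both neighbours gave like values, with LR changes of 4.12 for oligo 245 (SE 0.146) and 4.05 for oligo 244 (SE 0.146).

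Among all wild-type members, 74 of 282 (26.2%) had a higher LR in knockout than in wild-type cells at an edgeR FDR of 0.01 and 0 had a lower LR. Over all 11918 oligos tested, 5.15% were higher and 0.277% lower. The 74 were oligos 197 and 199 and every oligo from 202 to 273, all of which held part of the tract. None of the 185 wild-type oligos without tract motif bases was called, and their LR changes ran from -0.25 to 0.34 with a median of 0.01. With the unadjusted edgeR p below 0.05, 88 wild-type members were higher and 3 lower, beside 877 and 305 of all oligos, and DESeq2 called 76 wild-type members higher. The median LR change was 0.08 over wild-type members, 0.01 over mutated members and -0.01 over all oligos tested. Oligos 246, 245 and 244 did not top the library: the highest member ranked 55 of 11918 and 21 members stood among the top 100.

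The members that lay lowest did not pass the test. Oligo 71, the lowest, stood at 32.4, 35.5, 36.1 and 38.3 CPM in wild-type neurites and at 32.2, 27.6, 28.5 and 30.8 CPM in knockout neurites. These neurite groups did not overlap, but its LR change was -0.25 (SE 0.105, edgeR FDR 0.339). Oligos 84 and 160 followed at -0.23 and -0.22. At the ends of the tiling, oligo 1 gave an LR change of -0.06 and oligo 282 one of 0.09.

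The rise in neurites was larger than the rise in somas, but both compartments rose over almost the same oligos. In neurites, 93 wild-type members (33.0%) were higher in knockout than in wild-type cells, an unbroken run from oligo 184 to 276 with log2 changes of 0.20 to 6.30, and 0 were lower. Over all oligos, 8.06% were higher in neurites and 0.696% lower. In somas, 92 wild-type members (32.6%) were higher, oligos 184 to 275, with log2 changes of 0.27 to 2.37, and 0 were lower. Over all oligos, 7.55% were higher in somas and 0.101% lower. The 92 oligos were higher in both compartments, and 18 of them had no LR call. The highest member ranked 29 of 11918 in neurites and 24 in somas.

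Oligos at the 5′ side of the tract rose in both compartments by like amounts. Oligo 184 (chr14:70583786-70584045), which held 29 tract motif bases, stood at 64.0, 59.2, 59.9 and 63.9 CPM in wild-type somas and at 78.3, 70.0, 73.5 and 76.7 CPM in knockout somas. It stood at 61.2, 63.2, 67.0 and 61.7 CPM in wild-type neurites and at 75.0, 75.7, 71.2 and 69.7 CPM in knockout neurites. Knockout libraries lay above every wild-type library in both fractions, with log2 changes of 0.27 in somas (SE 0.0485, edgeR FDR 0.000139) and 0.20 in neurites (SE 0.0521, edgeR FDR 0.00794), while the LR change of -0.07 did not pass (edgeR FDR 0.916). Oligo 195 stood at 244, 236, 224 and 230 CPM in wild-type somas and 523, 527, 527 and 490 CPM in knockout somas, and at 199, 236, 227 and 225 CPM in wild-type neurites and 623, 622, 557 and 554 CPM in knockout neurites. Its LR change of 0.26 did not pass (edgeR FDR 0.067), although no library overlapped between genotypes in either fraction.

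Farther along the tract the neurite change grew beyond the soma change. Oligo 205 (143 motif bases) stood at 374, 348, 282 and 277 CPM in wild-type somas, 895, 940, 1023 and 886 CPM in knockout somas, 228, 251, 265 and 270 CPM in wild-type neurites and 1081, 1081, 1035 and 1027 CPM in knockout neurites. Its log2 change was 1.55 in somas and 2.06 in neurites, an LR change of 0.51 (SE 0.117, edgeR FDR 0.00432). Oligo 223 (179 motif bases) stood at 109, 103, 73.0 and 79.9 CPM in wild-type somas, 443, 451, 532 and 418 CPM in knockout somas, 54.3, 49.8, 64.6 and 64.1 CPM in wild-type neurites and 998, 1024, 1166 and 1176 CPM in knockout neurites. The soma change of 2.34 was larger than that of oligo 205 and the neurite change was 4.23, which made an LR change of 1.89 (SE 0.152, edgeR FDR 2.55e-10). Oligo 246, with 88 motif bases, had a soma change of 2.19 and a neurite change of 6.30.

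Past the peak the values came down with the tract. Oligo 263 (51 motif bases) stood at 40.7, 34.7, 28.7 and 29.0 CPM in wild-type somas, 95.4, 94.5, 105 and 96.9 CPM in knockout somas, 22.5, 28.3, 30.2 and 25.9 CPM in wild-type neurites and 482, 451, 525 and 525 CPM in knockout neurites. Its LR change was 2.66 (SE 0.126, edgeR FDR 6.72e-15). Oligo 273, the last to be called, gave 0.30 (SE 0.0721, edgeR FDR 0.00624), and the first oligo of the long run, 202, gave 0.41 (SE 0.0957, edgeR FDR 0.00557). Both lie close to the threshold and lost the call when replicate 1, 2 or 4 was left out. Oligo 278, only 5 steps past oligo 273 and without tract bases, stood at 86.9, 93.1, 95.9 and 94.3 CPM in wild-type neurites and at 90.3, 95.2, 92.1 and 90.7 CPM in knockout neurites, with overlapping groups and an LR change that rounds to 0.00.

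The 97 tract oligos were also set beside the sequence they held. Across these oligos the LR change followed the number of motif bases in the whole oligo weakly (Pearson r = 0.15, Spearman rho = 0.28, n = 97), whereas the soma change followed it more closely (r = 0.69, rho = 0.68). The number of copies of the repeated unit was followed by the LR change (r = 0.94, rho = 0.93) and by the soma change (r = 0.77, rho = 0.83). The LR change also followed the number of bases in GA runs (r = 0.94, rho = 0.95). These are descriptions over overlapping oligos from the same libraries, and unit copies, GA bases and position along the tract cannot be told apart because they move together. Oligos with 0 copies had LR changes of -0.07 to 0.73 (median 0.28, 39 oligos), and those with 1 copy 0.43 to 3.31 (median 1.41, 20 oligos). Oligos with 2 copies had 1.65 to 3.87 (median 3.13, 18 oligos), and those with 3 copies 3.53 to 4.12 (median 3.94, 20 oligos). The soma medians over the same 4 classes were 0.99, 1.86, 2.21 and 2.22. Where an oligo at the 5′ side and an oligo at the 3′ side of the tract held the same number of motif bases (28 pairings of 9 and 10 oligos, 51 to 145 bases), the 3′ oligo had the larger LR change in 28 of 28, with medians of 0.54 and 3.55. The soma medians of the 2 sides were 1.60 and 2.34.

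In wild-type cells, 24 wild-type members (8.51%) had an LR below that of the library at an edgeR FDR of 0.01, oligos 206 to 227, 229 and 230, with LR values of -0.33 to -0.64. Over all oligos 1.48% were lower and 2.57% higher. For oligo 223 this LR was -0.64 (SE 0.114, edgeR FDR 0.000352), with every neurite library below every soma library. The count of 24 rested on single replicates: it was 2 without replicate 1 and 1 without replicate 2. In knockout cells, 60 wild-type members (21.3%), oligos 213 to 272, had an LR above that of the library, at 0.26 to 4.08 with a median of 2.83, against 5.82% of all oligos.

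With the motifs replaced, the central tract reporters had smaller LR changes. No mutated member passed the LR change test at an edgeR FDR of 0.01 in either direction (unadjusted p below 0.05 in 4 higher and 1 lower, 0 by DESeq2). The 97 mutated tract companions had LR changes of -0.30 to 0.48, with a median of 0.02. In the paired limma test, 55 of 246 pairs had a smaller LR change in the mutated oligo, against 7.05% lower and 0.022% higher of 4551 pairs over the library. Of these, 54 were oligos 215 to 268, with differences of -0.87 to -4.17 and a median of -3.29. The pairs with the largest differences were oligos 245 (-4.17, SE 0.203, limma FDR 1.34e-10), 250 (-4.08, SE 0.267) and 244 (-4.01, SE 0.181). Mutated oligo 245 stood at 14.9, 16.5, 17.0 and 13.9 CPM in wild-type neurites and 19.7, 19.8, 20.5 and 16.6 CPM in knockout neurites, where its wild-type partner stood at 34.0, 31.8, 39.1 and 36.9 CPM and 2647, 2437, 2939 and 3021 CPM. The knockout neurite libraries of the partner lay above every other library of the pair.

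The remaining called pair, oligo 132, held no tract bases and was named after its values were seen. Its wild-type form stood at 24.6, 24.0, 23.0 and 25.3 CPM in knockout neurites and 22.5, 21.3, 22.9 and 21.0 CPM in wild-type neurites, and its mutated form at 21.7, 25.7, 21.6 and 22.8 CPM and 21.1, 22.8, 23.6 and 24.0 CPM. In neurites the mutated form overlapped between genotypes and the wild-type form did not. The pair's LR changes, which also draw on the somas not listed here, differed by -0.44 (SE 0.0947, limma FDR 0.00368). Pairs at the other extreme, oligos 160, 71 and 49, differed by 0.33, 0.31 and 0.24 and did not pass.

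In neurites 8 mutated members (3.25%) passed at an edgeR FDR of 0.01, against 8.06% of all oligos, and all 8 fell among oligos 243 to 266, with log2 changes of 0.46 to 0.70. The largest, mutated oligo 258, rose by 0.70 (SE 0.146, edgeR FDR 0.000907). In somas 0 mutated members passed by edgeR (unadjusted p below 0.05 in 13 higher and 8 lower), and 1 passed by DESeq2. Mutated members were also low in CPM at the centre of the tract. Mutated oligo 223 stood at 6.21, 7.11, 3.30 and 6.22 CPM in wild-type somas, far under its wild-type form, and at 8.31, 6.55, 9.13 and 8.16 CPM in knockout neurites, so these comparisons were less precise.

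In the binding assay, enrichment R is the share of an oligo's reads in a bound library over its share in the input, given on the log2 scale after 0.5 was added to each read count. Libraries held 1806779 to 9646262 reads. Most central tract oligos could not be measured well, since wild-type oligos 194 and 197 to 264, 69 in all, had under 20 input reads, 26 of them with 0. The median input count was 362 reads over all oligos and 297.5 over wild-type members. In addition, 9 wild-type and 55 mutated members were not listed in the binding counts.

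Oligos near both edges of the tract were enriched at 50 and 500 nM, apart from the outermost ones at the 5′ side. Those, wild-type oligos 180 to 182 with 6 to 14 tract motif bases, had log2 R at 500 nM of -1.82 to -0.49. Wild-type oligos 184 to 196 with at least 20 input reads (12 oligos) had median log2 R values of 0.26 at 5 nM, 2.65 at 50 nM and 2.64 at 500 nM, and at 500 nM they ran from 1.78 to 3.17. Oligos 265 to 276 (12 oligos) had medians of 0.29, 2.76 and 2.54. Oligo 195, the highest with at least 20 input reads, was counted 23 times in the input and 36 times at 0 nM, 19 and 21 times at 5 nM, 59 and 212 times at 50 nM and 421 and 166 times at 500 nM. Its log2 R at 500 nM was 3.49 and 2.85 in the 2 libraries. Oligo 193 followed at 3.31 and 2.76, from 37 input reads. At the 5′ edge, oligo 184 had 422 input reads and log2 R of 0.16 and 0.09 at 5 nM, 1.36 and 1.73 at 50 nM and 1.99 and 1.57 at 500 nM, with both libraries of the 2 higher concentrations above both at 5 nM.

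The members named first by the size of R were central oligos with almost no input. Oligo 251 was absent from the input and counted 28 and 16 times at 500 nM, at least 5.83-fold and 5.41-fold higher than a floor of 3 input reads allows. Oligo 209, also absent, was counted 19 and 5 times, at least 3.96-fold and 1.69-fold higher. Oligo 261 had 3 input reads and was counted 87 and 47 times, a ratio of 18.1 (95% interval 6.0 to 89.6) and 15.9 (5.12 to 79.8), with intervals that cover counting error only. By these bounds the share of each oligo in the bound libraries exceeded its share in the input, without fixing by how much. The 3 oligos were picked as the highest R, and 69 wild-type members had under 20 input reads. Their values therefore do not show enrichment of the central tract oligos as a set.

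In the edgeR test of 500 nM against 5 nM at an FDR of 0.05, 59 of 239 wild-type members (24.7%) were higher and 77 (32.2%) lower. Over the 10479 oligos tested, 18.5% were higher and 32.4% lower, so the members' lower share was near the background. With TMM scaling, which moved the median change of all oligos by 0.42 on the log2 scale, 82 wild-type members were higher and 55 lower. Of the 59, 30 held tract motif bases. The longest runs were oligos 183 to 196 (log2 R at 500 nM of 0.80 to 3.17) and 267 to 280 (0.61 to 2.93). Outside these runs, the calls without tract bases were scattered, mostly within oligos 37 to 82, at lower log2 R of 0.07 to 1.13, and oligo 160 gave 1.31. The remaining tract calls, oligos 200, 204, 256, 261, 263 and 264, had log2 R of 2.48 to 3.87, each from under 20 input reads. The lower calls formed blocks mostly in the upstream UTR, among them oligos 96 to 109 (-0.13 to -2.92) and 113 to 135 (-0.45 to -3.08). Oligos 180 to 182, at the start of the tract, were also called lower.

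The lowest members were well counted. Oligo 127 had 2860 input reads and 567 and 318 reads at 500 nM, a log2 R of -3.08, while at 5 nM its log2 R was 0.16 and 0.21. Oligo 105 (-2.92) and oligo 126 (-2.70) followed, from 338 and 2373 input reads. Oligo 127 holds no recognised motif. Relative to the input, these oligos were scarcer at 500 nM and not at 5 nM.

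Of 168 mutated members tested, 21 were higher (12.5%) and 71 lower (42.3%), against 18.5% and 32.4% of all oligos, or 39 and 51 with TMM scaling. Those at the 3′ edge of the tract were among the higher ones. The 21 included the runs 265 to 272 (log2 R at 500 nM of 2.07 to 2.60) and 275 to 279 (0.97 to 2.22). Wild-type oligo 270 had 264 input reads and log2 R of 3.02 and 2.65, and its mutated form had 51 input reads and 2.27 and 2.18. Both 500 nM values of the wild-type form lay above both of the mutated form.

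Beside the reporter values, binding and relocation did not always go together. Wild-type oligos 277 to 279 held no tract motif bases. Each held 11 motif bases in 2 other stretches, and they held 25, 21 and 15 bases of the longest GA run. Their median log2 R at 500 nM was 2.48, close to that of oligos 184 to 196 (2.64). The soma changes of oligos 277 to 279 were only -0.04 to 0.00 and their LR changes -0.06 to 0.10. Oligos 184 to 196 had soma changes of 0.27 to 1.17 and LR changes of -0.07 to 0.31. That stretch was set to start at the first oligo with a called soma rise, so its soma contrast was partly fixed by this choice. Oligo 278 was counted 462 times in the input and 5044 and 2422 times at 500 nM (log2 R 2.77 and 2.41), and its mutated form 357 times and 2859 and 1524 times (2.32 and 2.11). A few steps on, oligo 281 gave -1.10 and -0.94. Oligos 244 to 246, with the largest LR changes, had too few input reads for a like comparison.

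In the labelling assay, the rate is the percent of T positions in an oligo's reads that were read as C, and label loss is its log2 change from 0 h to 12 h. Libraries covered 5.04e+08 to 1.62e+09 T positions. Replicate 1 of knockout cells at 12 h stood apart, with a rate of 1.37% over all oligos where the other 2 replicates gave 0.465 and 0.511%. Wild-type cells at 12 h gave 1.17 to 1.33% and the 0 h libraries 1.81 to 1.94%, so the difference between genotypes is given with and without that library. Among members, 16 wild-type and 16 mutated oligos were not listed, and 36 wild-type and 55 mutated ones covered under 1000 T positions.

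With all libraries, no member's label loss was called different between knockout and wild-type cells. At an edgeR FDR of 0.05, 0 of 246 wild-type and 0 of 191 mutated members were called lower or higher, as over all 10576 oligos (0.0% lower). With the unadjusted p below 0.05, 18 wild-type and 5 mutated members were lower, beside 435 of all oligos. Within wild-type cells 0 members were called, against 0.00946% of all oligos (46 wild-type and 33 mutated members at an unadjusted p below 0.05). Within knockout cells 245 wild-type members (99.6%) and 159 mutated members (83.2%) lost label, against 98.1% of all oligos. No test of the mutated against the wild-type form passed (0.0% of 3865 pairs, 17 members higher and 6 lower at an unadjusted p below 0.05).

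Leaving out that library turned almost every oligo into a call. The difference between genotypes was then lower in 241 wild-type and 165 mutated members, against 97.3% of all oligos lower and 0.104% higher. In wild-type cells 234 wild-type members were called, against 98.3% of all oligos, and in knockout cells 246, against 99.8%. Set relative to the median oligo of each library, 15 wild-type members (6.10%) lost more label in knockout cells and 9 (3.66%) lost less. Over all oligos 5.92% lost more and 10.3% lost less, so the share of members that lost more was near the background. Of the 15, 13 held tract motif bases, and they included oligos 219, 220 and 225 to 228. For oligo 225, the knockout rates at 12 h left in this comparison lay below its rates without 4SU, as given below. Within knockout cells, on the same scale, 56 wild-type members (22.8%) lost more label than the median oligo and 33 (13.4%) lost less, against 20.7% and 25.1% of all oligos. Of the mutated members 32 (16.8%) lost more and 53 (27.7%) less. In the difference between genotypes, 31 mutated members (16.2%) lost less and 3 (1.57%) lost more, against 10.3% and 5.92% of all oligos. Of these, 26 and 1 were tract companions. Rates without 4SU ran up to 4.16% in mutated oligos 188 to 220, and their part in these calls was not tested.

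Oligos from the centre of the tract carried little label at the start. Oligo 225, with the lowest change, had rates of 0.699 and 0.632% in wild-type cells at 0 h and 0.654, 0.605 and 0.679% at 12 h. In knockout cells it had 0.954, 0.885 and 0.895% at 0 h and 0.636, 0.167 and 0.168% at 12 h, and without 4SU 0.201, 0.258 and 0.353%. The wild-type libraries of the 2 times overlapped and the knockout libraries did not, a difference of -1.78 that did not pass (edgeR FDR 0.41). The knockout rates of 0.167 and 0.168% at 12 h lay below every rate of this oligo without 4SU. Rates without 4SU were not subtracted in this test, so the size of the loss is not fixed. Over the 97 tract oligos the 0 h rate of wild-type cells ran from 0.653 to 2.05% with a median of 1.10%, and over 149 others from 1.54 to 2.47% with a median of 1.87%. The rates without 4SU had medians of 0.214 and 0.227%. Within the tract the 0 h rate fell with the number of motif bases (r = -0.89, rho = -0.88, n = 97), as a description over overlapping oligos.

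Oligo 278, past the tract, carried more label at the start than oligo 225. It had 2.18 and 1.93% at 0 h and 1.10, 1.01 and 1.25% at 12 h in wild-type cells, and 1.72, 1.88 and 1.98% at 0 h and 1.47, 0.465 and 0.536% at 12 h in knockout cells. Oligo 246, with the largest LR change, had 1.07 and 1.18% at 0 h and 0.729, 0.728 and 0.768% at 12 h in wild-type cells, and 0.962, 1.03 and 1.23% at 0 h and 0.813, 0.317 and 0.385% at 12 h in knockout cells. In both oligos the first knockout library at 12 h lay above the other 2. The members with the highest change, 116 (0.03), 30 (-0.01) and 95 (-0.05), held no tract bases.

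Some mutated tract companions were read as converted without any label. Mutated oligo 200 had rates of 2.61, 2.35 and 2.20% in the 3 libraries without 4SU, and mutated oligos 188 to 220 ran from 0.300 to 4.16%. The pairs with the highest difference, 189 (1.54), 195 (1.51) and 200 (1.45), lie there and did not pass (limma FDR 0.94 or above), nor did the lowest, 30 (-2.03), 57 (-1.25) and 264 (-0.92).

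The endogenous gene moved the same way in CAD cells, with a larger part in neurites and a smaller one in somas. The study picked the tiled 3′ UTRs by how their RNAs were localized in knockout cells, and it counts Fam160b2 among the TDP-43-sensitive RNAs. The LR rise of the gene is therefore not independent of that choice and lends the reporters no separate support. Fam160b2 stood at 8.04, 6.73 and 6.63 CPM in wild-type neurites (7.14 ± 0.784, SD, n = 3) and at 427, 522 and 480 CPM in knockout neurites (476 ± 47.5). It stood at 14.1, 12.5 and 14.8 CPM in wild-type somas (13.8 ± 1.15) and at 21.3, 20.2 and 17.0 CPM in knockout somas (19.5 ± 2.23). No library overlapped between genotypes in either fraction. The LR change was 5.56 (SE 0.153, edgeR FDR 1.08e-12), the neurite change 6.06 (SE 0.12, FDR 6.67e-15) and the soma change 0.50 (edgeR FDR 0.0012), which without replicate 2 was 0.40 with an edgeR FDR of 0.0498. Of 17343 genes, 0.225% had a higher LR, 11.8% a higher neurite level and 11.2% a higher soma level. The soma change of the gene was below the median of the 97 tract reporters (1.77) and below oligo 246 (2.19). Its neurite change was above the median of the tract reporters (3.22, range -0.02 to 6.30) and near that of oligo 246 (6.30). The assays were scaled separately, so these values are set side by side and were not tested against each other.

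Transcript ENSMUST00000022690, on which the oligos lie, gave an LR change of 5.56 (edgeR FDR 4.78e-08), a neurite change of 6.07 and a soma change of 0.52 (edgeR FDR 0.011). Tardbp fell from a mean of 537 to 93.8 CPM in somas and from 509 to 138 CPM in neurites of CAD cells, in the direction of the labels. The neuronal markers Tubb3, Map2, Gap43, Snap25 and Stmn2 were all present in CAD wild-type somas, at means of 66.5 to 532 CPM. Of the catecholamine enzymes, Dbh stood at 23.8, Th at 2.24 and Ddc at 0.581 CPM. Among glial markers, Gfap, Aqp4, Mog, Csf1r and Cx3cr1 did not pass the filter on low counts, and Slc1a3, Mbp and Aif1 stood at 0.135 to 0.892 CPM.

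In N2A cells the gene moved less. It stood at 7.51, 8.07 and 8.25 CPM in wild-type neurites and 14.2, 14.2 and 16.4 CPM in knockout neurites, and at 22.8, 21.6 and 19.1 CPM in wild-type somas and 19.3, 19.0 and 17.2 CPM in knockout somas. The neurite groups did not overlap and the soma groups did. The neurite change was 0.91 (edgeR FDR 1.13e-05), the soma change -0.19 (edgeR FDR 0.12) and the LR change 1.10 (SE 0.134, edgeR FDR 0.00131). Of 17912 genes, 0.0893% had a higher LR and 6.48% a higher neurite level. The LR call was lost whichever replicate was left out, at 1.05 to 1.10. The LR change was larger in CAD than in N2A cells by 4.48 (SE 0.20, edgeR FDR 2.92e-13) in a joint fit chosen after the data were seen. Tardbp fell by 1.78 on the log2 scale in N2A somas and by 2.52 in CAD somas, and the part of this gap in the difference was not tested.

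Between cells with the Q331K and the WT TDP-43 transgene, no change of the gene was detected. It stood at 8.10, 7.66 and 10.4 CPM in neurites with WT TDP-43 and 7.86, 6.92 and 8.99 CPM in neurites with Q331K TDP-43, and at 13.9, 14.7 and 12.7 CPM and 10.1, 13.1 and 10.4 CPM in the somas. The groups overlapped in both fractions. The LR change was 0.15 (SE 0.22, edgeR FDR 0.999), and of 13940 genes 0.0% passed for LR and 0.0% for neurites (for LR 189 higher and 416 lower at an unadjusted p below 0.05).

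Among its relatives, Fam160b2 alone passed for LR. Of 8 genes of the FTS, Hook and FHIP families in CAD cells (Hook1, Hook2, Hook3, Aktip, Fam160a1, Fam160a2, Fam160b1 and Fam160b2), 1 had a higher LR and 0 a lower one. Over all genes, 0.225% had a higher LR and 0.208% a lower one. Fam160b2 was listed as the gene under study, so its own calls in these counts carry no information on its relatives. The dynein adaptor Hook3 and Aktip, which encodes FTS, had higher neurite levels (0.26 and 0.43) and higher soma levels (0.38 and 0.35). With Fam160b2 as the third in each fraction, 3 of 8 were higher, against 11.8% of all genes in neurites and 11.2% in somas. The list medians, which include Fam160b2, were 0.03 for LR, 0.29 for neurites and 0.33 for somas, against -0.01, 0.00 and 0.00 over all genes. In N2A cells 1 of 7 measured genes passed for LR, again Fam160b2, where 0.0893% of all genes were higher and 0.0112% lower. In N2A somas Hook3 was higher (0.35) and Hook1 lower (-0.34), where 10.9% of all genes were higher and 5.15% lower. With Q331K TDP-43, 0 of 8 passed.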

How the data were processed

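Reporter, binding and labelling reads were trimmed with cutadapt and aligned end to end to the oligo sequences with bowtie2. The authors deposited, per oligo and library, reporter counts of reads and of distinct 8-nt UMIs, binding counts of reads, and labelling counts of T positions read as T or C, the last made with a modified PIGPEN. RNA-seq reads were quantified by the authors with Salmon against mm10, as estimated counts and as TPM per transcript. Versions of these tools are not given in the sources used here. The deposited labels give 2 µg/mL doxycycline for 48 h and the study's methods 1 µg/mL. In all, 74 libraries were used, and human motor neuron libraries were not analysed here.

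Reporter UMIs and genes (estimated counts summed per gene and rounded) were tested in edgeR 4.0.16 (R 4.3.3) by the quasi-likelihood test with TMM scaling, filterByExpr and an FDR of 0.01 over all features. Binding reads were tested likewise at an FDR of 0.05, scaled to total reads, and labelling counts with edgeR's methylation design, at least 1000 T positions per library and an FDR of 0.05. Companion pairs were tested in limma 3.58.1 on log2 ratios with 0.5 added, and DESeq2 1.42.0 was an alternative. TPM entered only length-scaled counts, another alternative. No input replicate exists for R, so R has no test. RNA-seq libraries held 9783050 to 32895542 estimated counts, 0.0737 to 0.129% of them on rows without a gene. The UMI space (65536) exceeds the largest oligo count (32009), which can understate high counts. Intervals and floors cover counting error only.

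Same-numbered libraries correlated in their deviations at r above 0.1 in every pair only between N2A wild-type and knockout somas (r = 0.55, 0.12 and 0.32) and between CAD wild-type somas and neurites (r = 0.13, 0.10 and 0.23), a hint from the data. Members and lists were chosen with earlier results of these data known. Oligos were named as the 3 highest and 3 lowest of each readout, the ends of called runs and of the tiling, and others by position. Identity came from the oligo names, and sequences from the GENCODE mouse transcripts (GRCm38).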

Additional observations from a re-analysis of the deposited data

Results flagged for a closer look

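Among 40 groups of 4 reporter libraries examined for the named oligos, 4 held a library far from the other 3, where chance alone flags about 1 group in 20. Oligo 84 stood at 49.0 CPM in replicate 1 of wild-type neurites against 55.4 to 56.0 CPM in the others, and oligo 160 at 28.7 CPM in replicate 4 of knockout neurites against 34.8 to 35.1 CPM. Oligo 202 stood at 767 CPM in replicate 3 of knockout somas against 702 to 710 CPM. Oligo 244 stood at 233 CPM in the same library against 193 to 198 CPM. The endogenous Fam160b2 LR change was larger in CAD than in N2A cells by 4.48 (edgeR FDR 2.92e-13, joint fit).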

How the results depend on the processing

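The count of 74 wild-type oligos with a higher LR in knockout cells was 61 to 77 with a replicate left out, and 69 and 70 with the culture or the replicate number as a replicate block. The block gave 53 and 55 called pairs (main 55) and 48 higher wild-type oligos in binding (main 59), and outside the counts of mutated oligos below and the run end, oligo 202 (0.40, edgeR FDR 0.0215 and 0.012), changed no other call or count by over 1.5 times. Crossing the numbers at 500 nM, chosen after seeing the data, gave 66 higher and 82 lower wild-type and 27 and 77 mutated oligos. The 8 mutated oligos higher in neurites became 16 at an FDR of 0.05 and 2 to 11 with a replicate left out. The 0 in somas became 1 by DESeq2, 1 under the replicate number block and 4 at an FDR of 0.05. For LR in wild-type cells, the 24 lower wild-type oligos became 1 to 31 with a replicate left out. The 3 higher mutated oligos became 7 by DESeq2, 0 with reads, 9 and 8 under the culture and number blocks, 21 at an FDR of 0.05, and 0 to 6 with a replicate left out.

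In binding, the 59 higher wild-type oligos became 31 for 500 against 50 nM and 31 at an FDR of 0.01, and the 21 mutated ones 10, 10, and 39 under TMM. Leaving out a binding replicate could not be fitted. The median log2 R of tract oligos, taken in each 500 nM library and averaged over both (2.23), became 2.76 against 0 nM, 1.41 with 5 added, 1.93 at 50 nM, 1.02 at 5 nM and 2.53 with at least 20 input reads. That of the other oligos (-0.23) became -0.49 against 0 nM, 0.052 at 50 nM and 0.23 at 5 nM. At 5 nM, oligos 105, 126 and 127 had 0.22, 0.38 and 0.18, and oligos 192 and 193 had -0.22 and -0.12. These sign changes come with concentration.

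For label loss, counts with a library or replicate left out ran, for wild-type and mutated oligos, from 0 to 241 and 0 to 165 in the difference between genotypes, 0 to 234 and 0 to 172 in wild-type cells and 0 to 246 and 0 to 182 in knockout cells, with 0 to 22 pairs. The upper values came without replicate 1 of knockout cells at 12 h, a choice made after seeing the data. Relative to the library median, the counts in knockout cells were 0 and 0, and 56 and 32 lower beside 33 and 53 higher without that library, where the difference was called in 15 and 3 and oligo 95 turned to 0.91. For the gene, the soma change in CAD cells ran from 0.40 to 0.64 and the LR change in N2A cells from 1.05 to 1.10 with a replicate left out, where 0 listed relatives passed in N2A cells. The cause of these moves was not tested. Upper-quartile factors moved the median change of all features by -0.14 for reporters in neurites, 0.12 for LR in N2A cells and -0.10 in N2A somas. Of the summary counts and gene values under alternatives, 291 kept their direction and size, 50 moved, 2 reversed and 4 lost the call. Of the values of named oligos and pairs, 298 kept them, 18 moved, 6 reversed, 12 gained a call and 13 lost it.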
